A study of Caenorhabditis elegans with 11 samples.

Results

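The genes described here encode subunits of the NuRD and MEC complexes of *Caenorhabditis elegans*. They are the 7 genes *let-418*, *chd-3*, *mep-1*, *lin-40*, *egl-27*, *dcp-66* and *hda-2*, chosen by name from the 46772 identifiers of a table of RNA-seq read counts. All 7 passed the filter on low counts and were among the 11547 protein-coding genes tested. Polyadenylated RNA had been sequenced from early-stage embryos obtained by bleaching young adults. The 11 libraries came from mutants carrying *cfp-1(tm6369)* (n = 3), *set-2(bn129)* (n = 3) or *sin-3(tm1276)* (n = 2) and from the wild-type strain N2, written WT (n = 3). CFP-1 and SET-2 belong to the SET1/COMPASS complex, which methylates lysine 4 of histone H3, and SIN-3 is the scaffold of a histone deacetylase complex. Each mutant is represented by a single allele, so an effect of the gene and of other variants of that strain cannot be told apart. Replicates were described as biologically independent.

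NuRD complexes join a chromatin remodeler of the Mi-2 family to a class I histone deacetylase. They also hold MTA proteins, a p66 protein and histone-binding proteins of the RbAp family, and they are best known for gene repression. In *C. elegans* the Mi-2 protein LET-418 also works in the MEC complex, with the zinc-finger protein MEP-1 and the deacetylase HDA-1. MEP-1 and LET-418 are known for keeping germline genes silent in somatic cells, and in the embryonic germline MEP-1 binds PIE-1.

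The libraries held between 21596949 and 35258557 counts, and the 7 genes together took between 0.228% and 0.330% of a library. The mutated genes were called lower in the mutants of their own name, with a log2 fold change over WT of -1.56 for *cfp-1*, -1.53 for *set-2* and -1.17 for *sin-3*. The replicates of a strain differed by more than counting noise. Replicate 2 of *set-2* stood apart, with 4504 normalized counts of the *set-2* transcript against 2437 and 2499 in the other *set-2* libraries, and 0.330% of its counts in the 7 genes against 0.254% and 0.256%. Calls of members that turn on this library are given with and without it. The 16 genes of an oocyte list summed to more in *cfp-1* and *sin-3*, with 6237 to 6713 CPM (counts scaled to a common library total) in *cfp-1*, 4193 to 4993 in *set-2*, 7105 to 7337 in *sin-3* and 4097 to 4818 in WT. The 18 transcription factor genes first switched on in embryos summed to 579 to 711, 820 to 1113, 599 to 626 and 806 to 938 CPM in the same order of strains. An embryo-age score, the mean log2 CPM of these factors minus that of the oocyte genes, lay between -2.87 and -2.19 in *cfp-1*, -1.61 and -1.12 in *set-2* embryos, -3.08 and -2.97 in *sin-3* embryos, and -1.59 and -1.19 in WT. The 12 muscle and cuticle genes summed to 372 to 688 CPM in *cfp-1*, 569 to 1357 in *set-2* embryos, 316 to 407 in *sin-3* embryos and 376 to 729 in WT, overlapping WT in each mutant. Sperm and yolk protein genes summed to at most 3.92 CPM in every library.

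By level per length, *mep-1* and *let-418* led the group. TPM, the counts of a gene divided by its exon length and scaled to the same total in each library, averaged 227 ± 32.9 for *mep-1* and 227 ± 26.98 for *let-418* in WT (SD, n = 3). The next were *chd-3* with 155 ± 22.7 TPM and *lin-40* with 139 ± 16.4 TPM. The lowest were *egl-27* with 86.5 ± 10.4, *dcp-66* with 85.6 ± 19.6 and *hda-2* with 82.9 ± 3.74 TPM. The WT libraries of neighbours in this order overlapped, except that all of *chd-3* lay below all of *let-418*, and all of *egl-27* below all of *lin-40*. Of 5 other subunit genes, *lin-53* (686 ± 36.5 TPM), *hda-1* (348 ± 38.1 TPM) and *rba-1* (332 ± 17.3 TPM) averaged more than every member in WT. The averages of *mbd-2* (161 ± 8.85 TPM) and *hda-3* (112 ± 4.93 TPM) lay within the range of the members. In *cfp-1* the order was different. There *let-418* averaged 179 ± 8.44 TPM and *mep-1* 141 ± 18.5 TPM, while *dcp-66* was the lowest of the 7 with 54.2 ± 10.6 TPM, below *hda-2* with 81.5 ± 1.04 TPM (SD, n = 3).

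**Figure D1:**
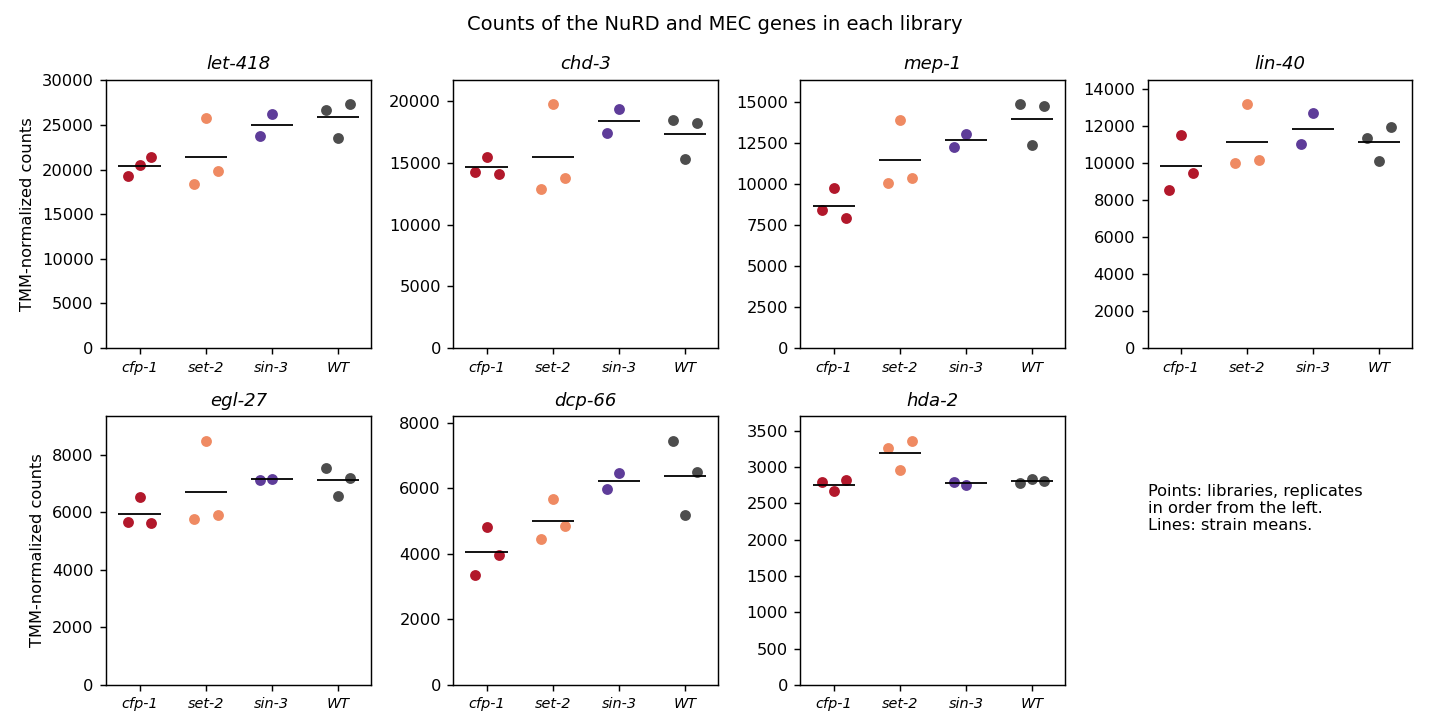
TMM-normalized counts of the 7 genes (y axis, from 0) by strain (x axis), where each point is a library and each line a strain mean. All *cfp-1* libraries lie below all WT libraries for *let-418*, *mep-1*, *egl-27* and *dcp-66*, and replicate 2 is the highest *set-2* library for every gene but *hda-2*, for which it is the lowest.

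The first question was how the loss of CFP-1, SET-2 or SIN-3 affected each gene. In *cfp-1* embryos, *mep-1* and *dcp-66* were lower than in WT, and the other 5 genes did not pass the test. Thus 2 of 7 genes were called lower, where 11.4% of all tested genes were. A call is an adjusted p under 0.05 in the quasi-likelihood test of edgeR, after Benjamini and Hochberg's adjustment over all tested genes. The point estimates of all 7 genes were below 0, as were those of 5792 of the 11547 tested genes. On the log2 scale the median of the 7 was -0.26, against 0.00 over all tested genes. For 4 of 7 genes every *cfp-1* library lay below every WT library, which held for 20.7% of tested genes. No member was called in *set-2* or *sin-3* embryos, where 14.4% and 25.2% of tested genes were called in either direction. At an unadjusted p under 0.05, 3 members passed in *cfp-1*, 2 in *set-2* embryos and 0 in *sin-3*, where 37.8%, 32.3% and 38.4% of all tested genes did. DESeq2 called 3 members in *cfp-1*, where it called 26.9% of the genes it tested. It called 0 members in the other mutants, against 19.1% of genes in *set-2* embryos and 27.6% in *sin-3*. In edgeR without replicate 2 of *set-2*, 31.5% of tested genes were called in *cfp-1* and 31.4% in *sin-3*, against 24.0% and 25.2% with it. For *set-2* the share was 14.7%, against 14.4%. All mutants were compared with the same WT libraries. These are bulk samples, so fewer cells that express a gene and less RNA per cell cannot be told apart.

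**Figure D2:**
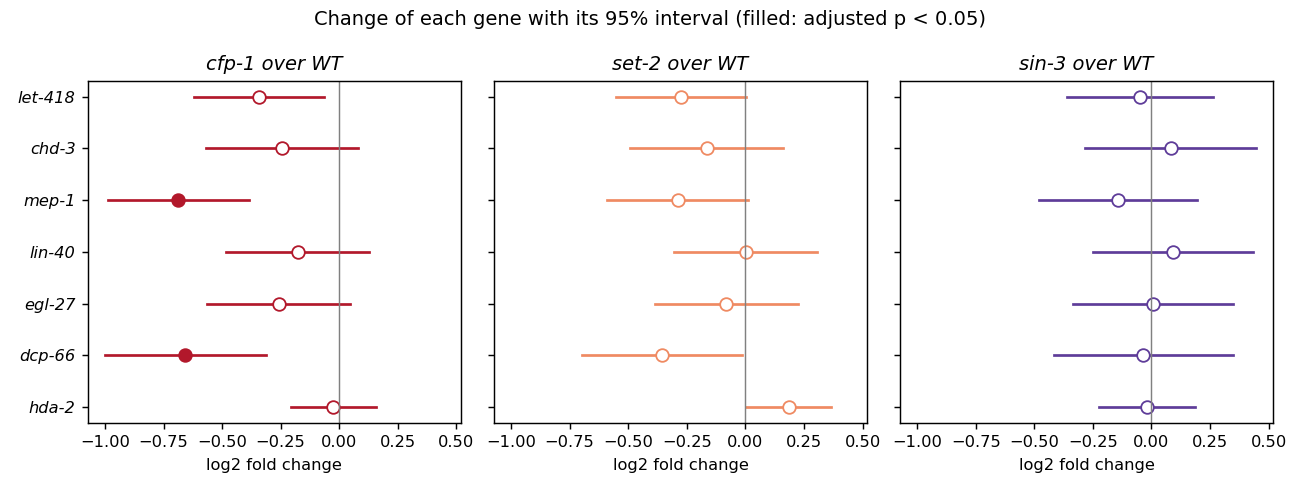
Log2 fold change of each gene over WT (x axis) in each mutant, with bars for the 95% interval and filled points for an adjusted p under 0.05. Only *mep-1* and *dcp-66* in *cfp-1* are filled, at -0.69 and -0.66, while the *sin-3* estimates lie between -0.14 and 0.09.

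MEP-1, the zinc-finger subunit of MEC, is encoded by *mep-1* (WBGene00003218), which in WBcel235 spans 11524642 to 11527954 of chromosome IV on the forward strand, with 1 annotated transcript and 3050 bp of exons. It had 8400, 9748 and 7905 normalized counts in *cfp-1*, 10061, 13923 and 10363 in *set-2* embryos, 12259 and 13055 in *sin-3* embryos, and 14859, 12347 and 14727 in WT. The *cfp-1* libraries were the 3 lowest of the 11, with no overlap with any other strain. The change in *cfp-1* was -0.69 on the log2 scale (SE 0.14, edgeR adjusted p = 0.00489), a difference of -37.9% in level. Its 95% interval ran from -0.99 to -0.38. In *set-2* the value was -0.29 (SE 0.14, edgeR adjusted p = 0.173), with replicate 2 inside the WT range and the other libraries below it. Without that library it was -0.45 (edgeR adjusted p = 0.0262). In *sin-3* the value was -0.14 with a 95% interval from -0.48 to 0.19, and replicate 1 lay just below the WT range.

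DCP-66 is the p66 protein of the NuRD complex. Its gene *dcp-66* (WBGene00000938) lies on the reverse strand of chromosome I from 7536104 to 7542159, with 2 transcripts and 3712 bp of exons, and overlaps the opposite-strand gene *C26C6.4* by 22 bp at one end. It had 3357, 4816 and 3972 normalized counts in *cfp-1*, 4461, 5672 and 4841 in *set-2* embryos, 5987 and 6464 in *sin-3* embryos, and 7443, 5190 and 6507 in WT. WT itself varied, with replicate 2 lowest, yet every *cfp-1* library was below it. The change in *cfp-1* was -0.66 (SE 0.16, edgeR adjusted p = 0.0115), a difference of -36.6% in level. In *set-2* it was -0.35 with a 95% interval from -0.70 to -0.01 and did not pass after adjustment (edgeR adjusted p = 0.142). In *sin-3* it was -0.04, with an interval from -0.42 to 0.35.

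The Mi-2 remodelers are encoded by *let-418* and *chd-3*. LET-418 is shared by NuRD and MEC and is needed for larval development, and CHD-3 is its close relative. The gene *let-418* (WBGene00002637) lies on the forward strand of chromosome V from 5826833 to 5832831, with 1 transcript and 5655 bp of exons. Its normalized counts were 19294, 20512 and 21389 in *cfp-1*, 18369, 25832 and 19903 in *set-2* embryos, 23762 and 26182 in *sin-3* embryos, and 26725, 23506 and 27343 in WT. Every *cfp-1* library was below WT, at between 74.6% and 82.7% of the WT mean, but the difference of -0.34 (SE 0.13) did not pass (edgeR adjusted p = 0.0703). It passed with DESeq2 (adjusted p = 0.0355) and in edgeR without replicate 2 of *set-2* (adjusted p = 0.0156), where the estimate stayed at -0.34. The latter fit called 31.5% of all tested genes in *cfp-1*, against 24.0% with all libraries. The difference also passed in edgeR when only *cfp-1* and WT were fitted (-0.32, adjusted p = 0.0473) and with TMM factors taken over all listed genes (-0.39, adjusted p = 0.0444). Leaving out replicate 2 of *set-2* also brought the *set-2* value to -0.43 (edgeR adjusted p = 0.0196), against -0.28 with it (edgeR adjusted p = 0.159).

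The gene *chd-3* (WBGene00000482) lies on the reverse strand of the X chromosome from 12846439 to 12852601, with 1 transcript and 5561 bp of exons. Its normalized counts were 14297, 15511 and 14131 in *cfp-1*, 12917, 19754 and 13746 in *set-2* embryos, 17388 and 19342 in *sin-3* embryos, and 18506, 15304 and 18255 in WT. The *cfp-1* libraries overlapped WT, through replicate 2 of each strain, and the value was -0.24 with a 95% interval from -0.57 to 0.08 (edgeR adjusted p = 0.254). The *set-2* libraries lay on both sides of the WT range, at -0.17 (edgeR adjusted p = 0.474), and at -0.38 without replicate 2 (edgeR adjusted p = 0.0395). The balance between the remodelers varied little, since *chd-3* made up 40.2% to 43.5% of the summed TPM of the pair in *cfp-1*, 41.3% to 43.7% in *set-2*, 42.7% to 42.9% in *sin-3* and 39.8% to 41.3% in WT.

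The MTA-related proteins LIN-40 and EGL-27 are scaffolds of NuRD. LIN-40 acts in vulval development, and EGL-27 in embryonic patterning and cell migration. The gene *lin-40* (WBGene00003025) lies on the forward strand of chromosome V from 3704988 to 3712796, with 5 transcripts and 3965 bp of exons, and it overlaps the opposite-strand gene *nrsn-1* by 18 bp and holds a snoRNA gene. It had 8525, 11521 and 9460 normalized counts in *cfp-1*, 10030, 13190 and 10187 in *set-2* embryos, 11017 and 12685 in *sin-3* embryos, and 11342, 10098 and 11944 in WT. All strains overlapped, and the values were -0.18 for *cfp-1* (95% interval -0.49 to 0.13), 0.00 for *set-2* (-0.31 to 0.31) and 0.09 for *sin-3* (-0.25 to 0.43).

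The gene *egl-27* (WBGene00001194) lies on the forward strand of chromosome II from 6835008 to 6847908. It has 24 annotated transcripts and 4079 bp of exons, and counts were summed over all of them, so a change between isoforms would not be seen. An opposite-strand non-coding gene and a snoRNA gene lie within it. Its normalized counts were 5667, 6519 and 5633 in *cfp-1*, 5758, 8485 and 5922 in *set-2* embryos, 7136 and 7148 in *sin-3* embryos, and 7543, 6578 and 7203 in WT. The *cfp-1* libraries were all below WT, the highest by a narrow margin, and the value of -0.26 did not pass (SE 0.14, edgeR adjusted p = 0.198). It passed without replicate 2 of *set-2*, at -0.26 (edgeR adjusted p = 0.0438). That fit called 31.5% of all tested genes in *cfp-1*, against 24.0% with all libraries. As a share of the TPM of both MTA genes, *egl-27* held 35.5% to 39.3% in *cfp-1*, 35.8% to 38.5% in *set-2*, 35.4% to 38.6% in *sin-3* and 36.96% to 39.3% in WT.

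HDA-2 is a class I histone deacetylase and a relative of HDA-1, the main deacetylase of the *C. elegans* NuRD and MEC complexes. Its gene *hda-2* (WBGene00001835) lies on the reverse strand of chromosome II from 8020780 to 8022561, with 1 transcript and 1677 bp of exons, and overlaps the opposite-strand gene *zyg-11* by 6 bp. It had 2794, 2666 and 2816 normalized counts in *cfp-1*, 3267, 2958 and 3361 in *set-2* embryos, 2794 and 2753 in *sin-3* embryos, and 2783, 2832 and 2813 in WT. The 3 WT libraries lay close together, with a coefficient of variation of 0.890% against 6.88% to 17.7% for the other members. A spread taken from 3 libraries is itself uncertain. In *set-2* the value of *hda-2* was the highest of the members, at 0.19 (SE 0.08, 95% interval 0.00 to 0.37). Every *set-2* library was above every WT library. This difference did not pass after adjustment (edgeR adjusted p = 0.146). With upper-quartile normalization it was 0.31 and passed (edgeR adjusted p = 0.0216), in a fit where the median of all tested genes moved to 0.11. That fit called 14.4% of all tested genes in *set-2*. In *cfp-1* and *sin-3* the values were -0.03 (95% interval -0.21 to 0.16) and -0.02 (-0.22 to 0.18).

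The mutants were then compared with each other. Against *sin-3*, *cfp-1* embryos had lower *mep-1* (-0.54, SE 0.15, edgeR adjusted p = 0.0405) and *dcp-66* (-0.62, SE 0.17, edgeR adjusted p = 0.0391). Of all tested genes 5.34% were called lower in this comparison. For 5 of 7 members every *cfp-1* library lay below both *sin-3* libraries, which held for 24.2% of tested genes. Both calls were lost with upper-quartile scaling and with the age score as a term. They rested on few libraries: leaving out replicate 1 or 3 of *cfp-1*, either replicate of *sin-3* or replicate 3 of WT ended both calls, with *mep-1* between -0.59 and -0.48 and *dcp-66* between -0.68 and -0.50. Between *cfp-1* and *set-2* no member was called, where 22.1% of tested genes were, and 2 of 7 passed at an unadjusted p under 0.05, as did 37.8% of tested genes. These were *mep-1* at -0.40 (SE 0.14, edgeR adjusted p = 0.0574) and *hda-2* at -0.21 (SE 0.08, edgeR adjusted p = 0.0853). For both, every *cfp-1* library was below every *set-2* library. The share of all tested genes for which this held was not counted in this comparison. A call was made for *mep-1* without replicate 2 of *cfp-1* (-0.49, edgeR adjusted p = 0.0496) or replicate 3 of *set-2* (-0.47, edgeR adjusted p = 0.0475), and for *hda-2* without replicate 2 of *set-2* (-0.27, edgeR adjusted p = 0.0429). DESeq2 called 1 member in this comparison, *mep-1*, and 25.4% of the genes it tested. In edgeR *mep-1* was also called without the filter (-0.42), with upper-quartile scaling (-0.49), with TMM over all listed genes (-0.45) and with the exon-length trend removed (-0.40). Upper-quartile scaling and TMM over all listed genes also gave a call for *hda-2* (-0.30 and -0.26), and removal of the length trend gave one for *dcp-66* (-0.32). Of tested genes, these fits called 22.0%, 22.0% and 26.7%, in that order, and the fit without the filter 14.2%. Between *set-2* and *sin-3* no member was called, although 40.7% of tested genes were, and 1 of 7 passed at an unadjusted p under 0.05, as did 51% of tested genes. That gene was *hda-2* at 0.20 (SE 0.09, edgeR adjusted p = 0.0972). With upper-quartile scaling it was called at 0.35 (edgeR adjusted p = 0.00811), where the median of all tested genes was 0.21 and 42.8% were called. DESeq2 called 0 members there and 42.3% of the genes it tested. Without replicate 2 of *set-2*, edgeR called 3 members and 38.9% of tested genes. For *let-418* the value was -0.38 without that library (edgeR adjusted p = 0.0197) and -0.22 with it (edgeR adjusted p = 0.216). For *chd-3* it was -0.46 without (edgeR adjusted p = 0.0107) and -0.25 with it (edgeR adjusted p = 0.245), and for *hda-2* it was 0.26 without (edgeR adjusted p = 0.0366).

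Levels relative to *let-418*, taken within a library, do not depend on library size. The TPM of *mep-1* per *let-418* was 0.685 to 0.881 in *cfp-1* and 0.965 to 1.02 in *set-2*. The ratio was 0.924 to 0.957 in *sin-3* and 0.974 to 1.03 in WT. Neither *cfp-1*, which was lowest, nor *sin-3*, with 2 libraries, overlapped any other strain. For *dcp-66* the ratio was 0.265 to 0.358 in *cfp-1*, 0.334 to 0.370 in *set-2*, 0.376 to 0.384 in *sin-3* and 0.336 to 0.424 in WT, so that *cfp-1* overlapped *set-2* and WT. The ratio of *lin-40* was higher than the WT range of 0.605 to 0.623 in every mutant library, at 0.630 to 0.801 in *cfp-1*, 0.728 to 0.779 in *set-2* and 0.661 to 0.691 in *sin-3*. Its denominator *let-418* was at -0.34 in *cfp-1* and -0.28 in *set-2* over WT, while *lin-40* was at -0.18 and 0.00, all uncalled. A higher ratio alone does not show a higher level of *lin-40*, which was not called over WT in any mutant. The ratio of *hda-2* was 0.438 to 0.488 in *cfp-1*, 0.386 to 0.600 in *set-2*, 0.355 to 0.397 in *sin-3* and 0.347 to 0.406 in WT. Among the class I deacetylases, *hda-2* made up 15.3% to 16.3% of the summed TPM in *cfp-1*, 14.1% to 18.3% in *set-2*, 14.1% to 14.5% in *sin-3* and 14.8% to 16.2% in WT. Since these ratios were looked at after the counts, they are given as a description with no test.

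**Figure D3:**
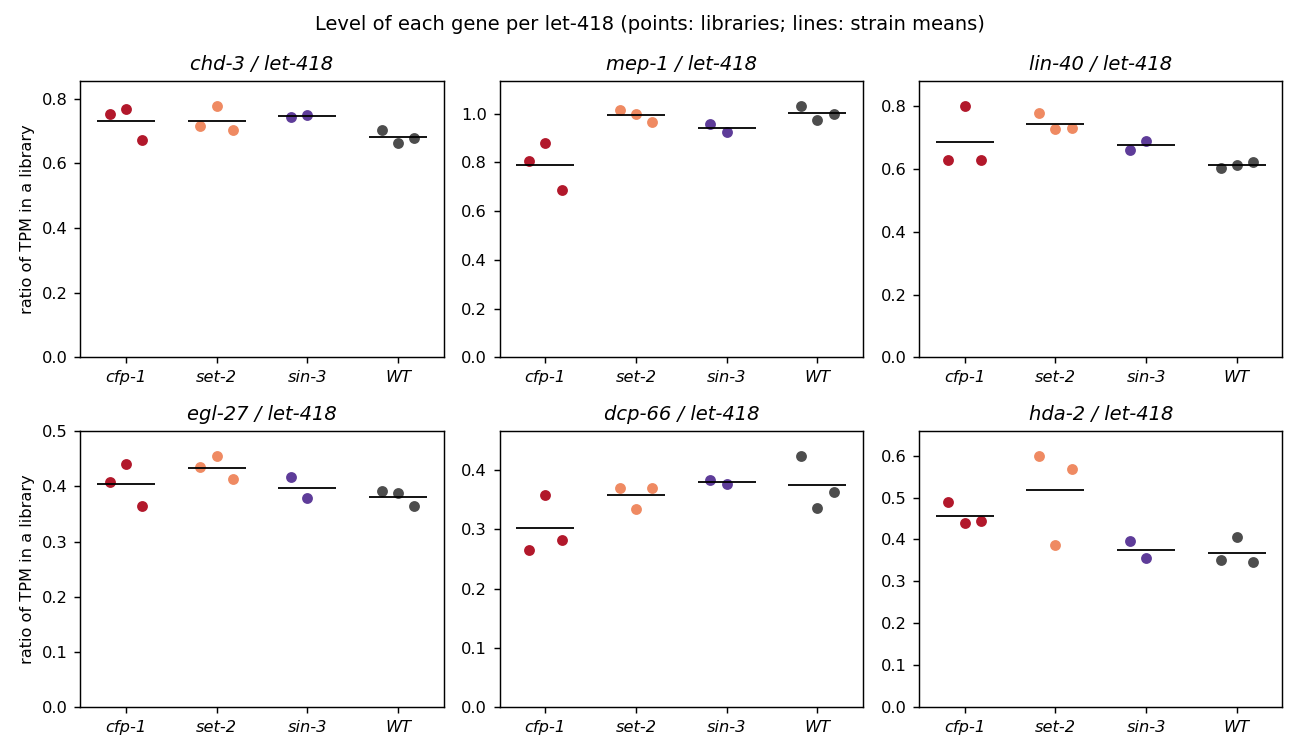
TPM of each gene divided by the TPM of *let-418* in the same library (y axis, from 0) by strain (x axis), with a point for each library and a line for each strain mean. For *mep-1* the *cfp-1* libraries lie at 0.685 to 0.881, below every library of the other strains, while replicate 2 is the lowest *set-2* library for *hda-2*.

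Across the 11 libraries, which share strains and so are not independent, *mep-1* and *dcp-66* were each other's closest member. The Pearson correlation of their log2 CPM was 0.930. For *let-418* the closest member was *chd-3* (0.927), for *chd-3* and *egl-27* it was the other of the pair (0.936), and for *lin-40* it was *egl-27* (0.874). For *hda-2* every correlation with another member was below 0, the highest being -0.127 with *mep-1*. Among all tested genes, the closest to *mep-1* was *toe-4* (0.974), to *dcp-66* *rbg-2* (0.970), to *let-418* *F55F10.1* (0.976), to *chd-3* *cdh-4* (0.989), to *egl-27* *rho-1* (0.986), to *lin-40* *sam-10* (0.925) and to *hda-2* *F08G5.3* (0.920). In the order of all tested genes by this correlation, the closest member ranked between 16 (for *dcp-66*) and 43 (for *chd-3*), and 6912 for *hda-2*.

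Gene length moved with these values. The 6 members other than *hda-2* have 3050 to 5655 bp of exons. The 1223 tested genes in that range had a median log2 fold change of -0.10 for *cfp-1*, -0.16 for *set-2* and 0.11 for *sin-3* over WT, and -0.20 for *cfp-1* over *sin-3*. The medians of all tested genes were 0.00, -0.02, -0.03 and 0.04 in the same comparisons. With the trend on exon length removed from each library, *mep-1* and *dcp-66* remained lower in *cfp-1* than in WT, at -0.60 (SE 0.10, edgeR adjusted p = 0.00125) and -0.55 (SE 0.10, edgeR adjusted p = 0.00193), and *let-418* was at -0.18 (edgeR adjusted p = 0.150). For *cfp-1* over *sin-3*, *mep-1* was then at -0.39 (edgeR adjusted p = 0.0413), against -0.54 with the trend kept. In the same comparison *dcp-66* was at -0.45 (edgeR adjusted p = 0.0219), against -0.62.

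The embryo-age score also differed between *cfp-1* and WT. It sets embryonic factors against oocyte genes, so a difference in age and one in RNA left from the oocyte cannot be told apart by it. With the score as a term, the *cfp-1* values were -0.43 for *mep-1* (SE 0.33, edgeR adjusted p = 0.489) and -0.75 for *dcp-66* (SE 0.40, edgeR adjusted p = 0.320), and neither passed. In that fit 0.736% of all tested genes were called in *cfp-1*. The scores of the *cfp-1* and WT libraries did not overlap, so strain and score could hardly be told apart in it. The *sin-3* libraries had scores below all *cfp-1* libraries, with *mep-1* at 87.7% and 93.4% of the WT mean and *dcp-66* at 93.8% and 101%. The *cfp-1* libraries had *mep-1* at 56.6% to 69.7% and *dcp-66* at 52.6% to 75.5% of the WT mean. Among the *cfp-1* libraries, *dcp-66* was lowest in the one with the highest score, and *mep-1* was lowest in the one with the lowest score.

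**Figure D4:**
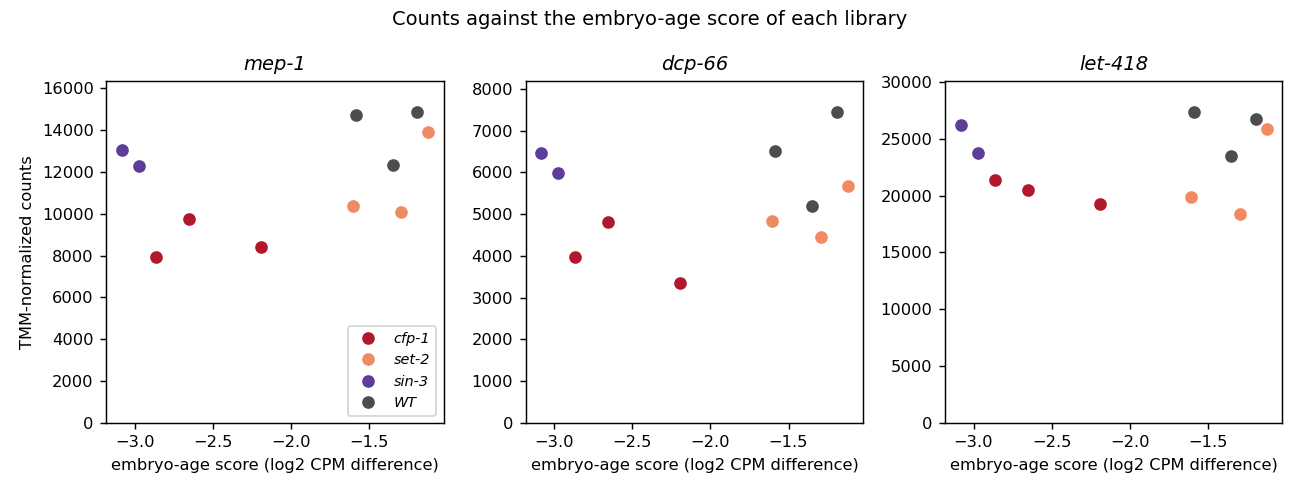
TMM-normalized counts of *mep-1*, *dcp-66* and *let-418* (y axis, from 0) against the embryo-age score (x axis, log2 CPM of embryonic transcription factors minus that of oocyte genes), with a point for each library coloured by strain. The *sin-3* libraries have the lowest scores, -3.08 and -2.97, and lie above the *cfp-1* libraries in all 3 genes.

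A list of other subunits of the complexes held *hda-1* and *hda-3* (deacetylases), *lin-53* and *rba-1* (RbAp proteins) and *mbd-2* (the methyl-CpG-binding domain protein). By edgeR 0 of 5 were called against WT in any mutant, where the calls took 24% of tested genes for *cfp-1*, 14.4% for *set-2* embryos and 25.2% for *sin-3*. At an unadjusted p under 0.05, 0 of 5 passed in *cfp-1* and *set-2*, against 37.8% and 32.3% of tested genes, and 1 of 5 in *sin-3*, against 38.4%. Their median log2 fold change was -0.15 for *cfp-1*, 0.00 for *set-2* and 0.03 for *sin-3*. The gene that passed was *hda-3*, at 0.27 (edgeR adjusted p = 0.0744), which was called without replicate 2 of *set-2* (0.27, edgeR adjusted p = 0.0301). It was also called by DESeq2 (0.28, adjusted p = 0.0416) and in edgeR with DESeq2 size factors, with the compared strains alone or with the length trend removed (0.29 to 0.30). In *cfp-1* the deacetylase shared by NuRD and MEC, *hda-1*, was at -0.15 with a 95% interval from -0.42 to 0.12. Between mutants 1 of 5 was called, *mbd-2*, in *set-2* over *sin-3*, where 40.7% of tested genes were called and 19.9% were called higher. It was higher in *set-2* by 0.29 (SE 0.10, edgeR adjusted p = 0.0331). That call ended without replicate 1 (0.28) or 3 (0.27) of *set-2* or replicate 1 (0.30) or 2 (0.27) of *sin-3*, and at 0.07 with the exon-length trend removed (edgeR adjusted p = 0.535). It also ended with the compared strains alone (0.28) and with the age score as a term (0.13). Against WT, *mbd-2* was at 0.16 in *set-2* (edgeR adjusted p = 0.209), and at 0.29 with upper-quartile scaling (edgeR adjusted p = 0.0442).

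A further list held the germline repressor gene *pie-1*, genes of MOG proteins that bind MEP-1, the SUMO pathway genes *smo-1*, *ubc-9* and *gei-17*, and *tra-4*, a zinc-finger gene of sex determination. Of its 9 genes, 8 were matched by symbol and tested. In *cfp-1* and *set-2* 0 of 8 were called by edgeR, with 2 and 4 at an unadjusted p under 0.05, where 37.8% and 32.3% of all tested genes passed. In *sin-3* 1 of 8 was higher, as were 12.6% of tested genes. That gene was *pie-1*, which is itself one of the oocyte genes in the age score. It had 5373 and 5481 normalized counts in *sin-3* and 2617, 3079 and 3552 in WT, a log2 fold change of 0.82 (SE 0.25, edgeR adjusted p = 0.0327). The call was lost without either *sin-3* library, replicate 1 of WT or replicate 2 of WT, at 0.71 to 0.85 (edgeR adjusted p between 0.0687 and 0.140). In *cfp-1*, *pie-1* was at 0.53 (edgeR adjusted p = 0.109), and at 0.75 without replicate 1 of *cfp-1* (edgeR adjusted p = 0.0216). The DEAH-box helicase gene *mog-5* was at -0.35 in *cfp-1* (SE 0.12, edgeR adjusted p = 0.0549), with every *cfp-1* library below WT. It was called without replicate 2 or 3 of *set-2*, at -0.35 and -0.34 (edgeR adjusted p = 0.0158 and 0.0444). DESeq2 also called it (-0.37, adjusted p = 0.0252), as did edgeR with either other filter on low counts, with the compared strains alone or with TMM over all listed genes (-0.40 to -0.33). In *set-2* it was at -0.29 (edgeR adjusted p = 0.131), and it was called at -0.28 with the age score as a term (edgeR adjusted p = 0.0397). Its relative *mog-4* was at -0.25 in *set-2* (edgeR adjusted p = 0.0776), and was called without replicate 2 (-0.30, edgeR adjusted p = 0.0456) and by DESeq2 (-0.27, adjusted p = 0.0312).

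The last list held genes that LET-418 and MEP-1 are known to keep low, and relatives of them. They encode P granule proteins of the germline (*pgl-1*, *pgl-3*, *glh-1*, *glh-2*, *glh-4*), the Notch ligand LAG-2 and the EGF-like ligand LIN-3. All were present in WT, with averages from 9.28 TPM (*lag-2*) to 127 TPM (*pgl-1*). Whether a change in them follows from LET-418 or MEP-1 was not tested. In *cfp-1* 3 of 7 were higher and none lower, where 12.7% of all tested genes were higher, with a median of 0.55 on the log2 scale. In *set-2* 1 was higher, against 7.4% of tested genes, and 1 lower, against 7.04% (median -0.03). In *sin-3* 5 were higher, against 12.6% of tested genes, and none lower (median 0.70). The only gene called higher in every mutant was *pgl-3*. It had 1213, 1255 and 1899 normalized counts in *cfp-1*, 635, 745 and 778 in *set-2* embryos, 1113 and 1102 in *sin-3* embryos, and 431, 397 and 477 in WT. No mutant library overlapped WT, and the log2 fold changes were 1.74 (edgeR adjusted p = 6.72e-05), 0.73 (edgeR adjusted p = 0.0155) and 1.35 (edgeR adjusted p = 0.000709).

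The Vasa-related helicase genes *glh-2* and *glh-4* were higher in *cfp-1*, by 0.66 and 0.69 (edgeR adjusted p = 0.00219 and 0.00487), and in *sin-3*, by 0.72 and 0.70 (edgeR adjusted p = 0.00245 and 0.00750). The gene *pgl-1* had 11651 and 13379 normalized counts in *sin-3* and 5765, 6261 and 7188 in WT, and was higher by 0.97 (edgeR adjusted p = 0.0171). In *cfp-1* it was at 0.55 (edgeR adjusted p = 0.102), and was called without replicate 1 of *cfp-1* (0.75, edgeR adjusted p = 0.0346) or replicate 2 of *set-2* (0.55, edgeR adjusted p = 0.0287), and with the compared strains alone (0.57, edgeR adjusted p = 0.0407). The gene *lin-3* was higher in *sin-3*, by 0.53 (edgeR adjusted p = 0.0130), and lower in *set-2*, at -0.43 (edgeR adjusted p = 0.0330). Several of these calls rested on single libraries. Without replicate 1 of *sin-3*, the *sin-3* values of *pgl-1* (1.09), *glh-4* (0.65) and *lin-3* (0.49) no longer passed, and without replicate 2 those of *pgl-1* (0.86) and *lin-3* (0.60). The *pgl-1* call also ended without replicate 1 of WT (0.89), and the *set-2* call of *lin-3* without replicate 1 or 2 of *set-2*, either *sin-3* library, or replicate 2 or 3 of WT (-0.43 to -0.34). That call also ended with the compared strains alone (-0.41) and with upper-quartile scaling (-0.31), which gave a call for *glh-2* in *set-2* (0.36, against 0.23 without a call). With all libraries no call was made for *glh-1* or *lag-2* in any mutant, and *glh-1* was called in *cfp-1* without replicate 2 of *set-2* (0.33, edgeR adjusted p = 0.0473). The strains with 3 and 5 genes called higher, *cfp-1* and *sin-3*, were those in which the oocyte list summed to more. With the age score as a term, *pgl-3* was at 1.02 (SE 0.33, edgeR adjusted p = 0.127) in *cfp-1* and 0.37 (SE 0.44, edgeR adjusted p = 0.727) in *sin-3*, and *glh-4* turned to values below 0 without a call in both. The calls of *glh-2* were lost too, at 0.17 (SE 0.21, edgeR adjusted p = 0.698) in *cfp-1* and 0.04 (SE 0.29, edgeR adjusted p = 0.967) in *sin-3*. The scores of these strains did not overlap WT, so strain and score could hardly be told apart there. In *set-2*, whose scores overlapped those of WT, *pgl-3* was at 0.75 in that fit (SE 0.14, edgeR adjusted p = 0.00649) and *pgl-1* was called at -0.40 (edgeR adjusted p = 0.0407), against -0.40 without a call when the score was left out (edgeR adjusted p = 0.250).

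**Figure D5:**
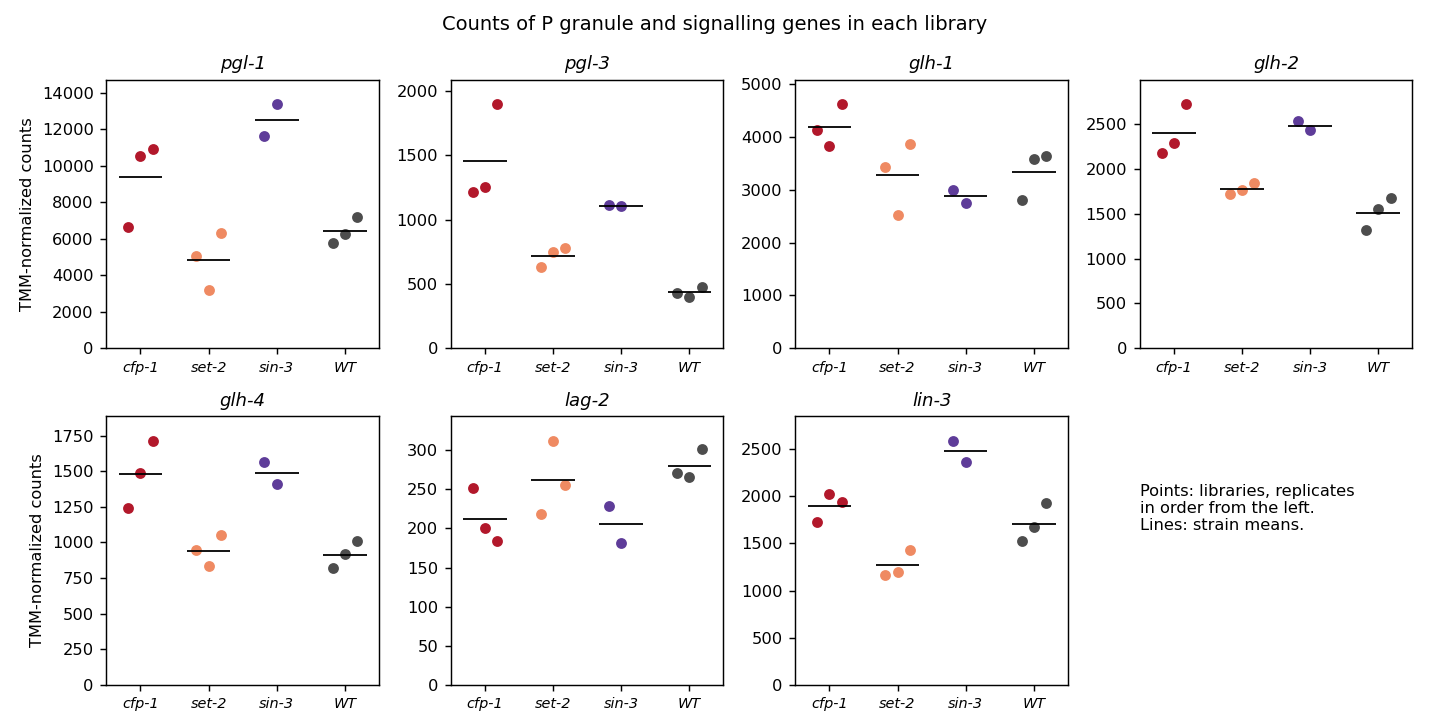
TMM-normalized counts of the 7 P granule and signalling genes (y axis, from 0) by strain (x axis), with a point for each library and a line for each strain mean. For *pgl-3* the libraries of *cfp-1* (1213 to 1899), *set-2* (635 to 778) and *sin-3* (1102 and 1113) all lie above the WT libraries (397 to 477).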

How the data were processed

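The authors mapped reads of the stranded poly(A) libraries to *C. elegans* genome release WS254 with STAR 2.4.1d, filtered them by mapping score with SAMtools 0.1.19, counted reads per gene with HTSeq 0.7.2 and deposited the raw counts, without normalization. How strand was used in counting is not given in the sources used here. The deposited DESeq2 tables of each mutant against WT, which hold mean counts, fold changes and p-values, were not used.

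Gene type, position and exon length came from Ensembl release 115 (WBcel235). Counts were scaled with TMM factors (0.940 to 1.10) in edgeR 4.0.16 under R 4.3.3. One quasi-likelihood model with a mean per strain was fitted to the 11 libraries over the 11547 protein-coding genes with a mean normalized count above 10. The standard error is the log2 fold change over the square root of F. Values for TPM divide counts by exon length and rescale each library to one total. In data simulated for *cfp-1* against WT (11547 genes), 29% of 100 genes changed 1.5-fold and 55% of 100 genes changed 2-fold were recovered, with 7 unchanged genes called. The simulation drew on tested genes of all levels and changed 100 at each fold, while 24.0% of genes were called in the data. Its shares therefore do not carry over to the members, whose SE in *cfp-1* over WT lay between 0.083 and 0.157. Intervals and p-values cover the spread between libraries.

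The members, gene lists and tests were chosen with earlier results of these data known. Named are the 7 members, the listed companion genes that were called or that place a member, the mutated genes, and for each member the gene with the highest correlation; *hda-3*, *mog-4* and *mog-5* were named after their values were seen. The 22 alternatives were DESeq2 1.42.0, other normalizations, no filter, replicate blocks, the age score, fits of the compared strains alone, each replicate left out and, added after seeing the data, TMM over all listed genes and the removal of the exon-length trend.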

Additional observations from a re-analysis of the deposited data

How the results depend on the processing

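Of 924 recomputed log2 fold changes of members (42 values, 22 alternatives), 815 kept their direction and their side of the threshold. A call was lost in 22 and gained in 24. Of the rest, 63 values without a call changed sign and 0 called values reversed. In *cfp-1* over WT, *mep-1* and *dcp-66* were called in 20 of 22 alternatives, with *mep-1* at -0.83 to -0.43 and *dcp-66* at -0.84 to -0.53. Of the 7 members, 2 were called there, 0 with a replicate block by title number and 0 with the age score as a term, 3 with DESeq2, with *cfp-1* and WT alone and with TMM over all listed genes (the added gene being *let-418*), and 2 to 4 when one library was left out, with 4 without replicate 2 of *set-2*. For *set-2* over WT (0 called, 14.4% of genes) upper-quartile normalization (14.4%) gave 1, *hda-2*. Leaving out a library gave 0 to 3, with 3 without *set-2* replicate 2 (14.7%). For *sin-3* over WT every alternative gave 0. For *cfp-1* over *set-2* (0) the count was 1 with DESeq2 and without the filter, 2 with upper-quartile scaling, TMM over all listed genes or the length trend removed, and 0 to 1 when a library was left out. For *cfp-1* over *sin-3* (2) it was 0 with upper-quartile scaling, either replicate block or the age score, and 0 to 2 when a library was left out. For *set-2* over *sin-3* (0) it was 1 with upper-quartile scaling and 0 to 3 when a library was left out. Upper-quartile scaling moved the median of all genes to 0.11 in *set-2* over WT and 0.21 in *set-2* over *sin-3*. The causes of these shifts were not tested.

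Deviations of same-numbered libraries correlated at -0.45 to 0.47 (7 of 15 pairs over 0.1), and at -0.41 to 0.35 by title number (2 of 6). Neither number gave a pairing. The block by title number has nearly as many terms as libraries, so the calls it lost decide nothing. It called 0.0606% of tested genes in *cfp-1* over WT, 0.217% in *set-2* and 0% in *sin-3*. It called 0.0346% in *cfp-1* over *set-2* and over *sin-3*, and 0% in *set-2* over *sin-3*. Over WT no member, listed gene or mutated gene kept its call. Between mutants no member kept a call, and *mbd-2* in *set-2* over *sin-3* lost its call at 0.21. The other listed genes and the mutated genes were not followed between mutants. The block by replicate number gave a call for *mog-5* in *cfp-1* (-0.36, edgeR adjusted p = 0.0410).

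The age score as a term reversed *glh-4* in *cfp-1* (-0.096) and, in *sin-3*, *pie-1* (-1.28), *pgl-1* (-1.15), *glh-4* (-0.38), *lin-3* (-0.21) and the *cfp-1* transcript (-0.39). The share of all tested genes called moved by over 1.5 times in some settings. In *cfp-1* over WT it was 24.0%, 16.0% without the filter, 0.736% with the age score and 13.2% to 31.5% with a library left out. In *set-2* it was 14.4%, and 5.69% to 18.04% with a library left out. In *sin-3* it was 25.2%, 15.7% without the filter, 0.00866% with the age score and 7.86% to 31.4% with a library left out. Between mutants, leaving out a library gave 7.53% to 24.3% in *cfp-1* over *set-2* (22.1%; lowest without *cfp-1* replicate 3), 0.935% to 17.5% in *cfp-1* over *sin-3* (11.6%; lowest without *sin-3* replicate 2, highest without *set-2* replicate 2) and 17.8% to 42.8% in *set-2* over *sin-3* (40.7%; lowest without *sin-3* replicate 1). Without the filter these shares were 14.2%, 6.38% and 25.7%, and with the age score 0.00866%, 4.23% and 0.00866%. Fits without one *sin-3* library assume that the lone one left varies like the other strains. The compared strains alone gave 10.7% in *cfp-1* over *set-2*, and DESeq2 18.9% in *cfp-1* over *sin-3*. With 3 libraries against 3, 55% of genes changed 2-fold were recovered in the simulation, a share that does not carry over to the members. A strain with 2 libraries was not simulated.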
